A study of Mus musculus with 24 samples.

Results

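Snai1, Snai2, Zeb2, Ovol2 and Mesp1 were followed in sorted cells of mouse embryoid bodies, the clusters that embryonic stem cells form when they differentiate in culture. The array probes taken were those whose platform annotation names a single gene, that gene being one of these 5. This gave 6 of the 20280 probes, 1 each for Snai1, Snai2, Ovol2 and Mesp1 and 2 for Zeb2, or 5 of the 8973 genes that such probes name. The sort divided the cells by surface Flk1, the VEGF receptor encoded by Kdr, into Flk1+ and Flk1- fractions. Each fraction was sampled at 84 h, 95 h and 8 d of differentiation with 4 arrays a group, 24 arrays in 6 groups. The labels give no cell line, genotype or culture treatment, so all 6 groups differ, as far as the labels go, only in sort and time. Every array carried 1 sample in Cy5 against the same kind of reference in Cy3, RNA of homogenised whole mouse pups. The study's title places the series in work on Wnt signalling and endothelial commitment.

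Epithelial to mesenchymal transition (EMT) is the change in which cells of a sheet give up their junctions and become single, motile cells. In the gastrulating mouse embryo it lets epiblast cells leave through the primitive streak as mesoderm. Snai1 and Snai2 (Slug) are zinc finger repressors, and Zeb2 (Sip1) is a zinc finger and homeodomain repressor that binds Smads. All 3 bind E-boxes and are known for shutting off the gene of E-cadherin. Ovol2 is a zinc finger factor that holds cells in the epithelial state and represses EMT factors. Mesp1 is a basic helix-loop-helix factor of the first mesoderm to leave the streak, from which heart and vessel cells arise.

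Members of these repressor and helix-loop-helix families bind E-boxes, so the promoters of the 2 genes that were higher in Flk1+ cells at 84 h and fell there by 8 d, Snai1 and Mesp1, are shown with their E-boxes in capitals. The sequences are the 250 bases before the start in RefSeq on GRCm38.p6, 5′ to 3′ on the gene's strand, at chr2:167537945-167538194 on the plus strand for Snai1 and at chr7:79793591-79793840 on the minus strand for Mesp1.
Snai1: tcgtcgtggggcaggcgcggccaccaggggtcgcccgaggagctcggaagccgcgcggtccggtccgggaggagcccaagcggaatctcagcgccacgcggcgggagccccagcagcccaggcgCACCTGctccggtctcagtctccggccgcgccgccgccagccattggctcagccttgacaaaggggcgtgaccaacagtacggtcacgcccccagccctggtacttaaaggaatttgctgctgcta
Mesp1: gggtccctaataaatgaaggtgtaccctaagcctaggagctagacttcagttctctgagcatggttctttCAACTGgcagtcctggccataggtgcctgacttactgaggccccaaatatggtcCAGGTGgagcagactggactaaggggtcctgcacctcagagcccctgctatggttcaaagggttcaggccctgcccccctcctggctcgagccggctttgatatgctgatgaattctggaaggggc
The motif CAGGTG, searched on both strands, is a special case of the E-box CANNTG, which reads the same on both strands. Counted from the start, 1 match of CAGGTG lies at -126 to -121 in each promoter, reading CACCTG on the strand of Snai1. Mesp1 has another CANNTG at -180 to -175, which reads CAACTG. Of 32851 windows of this length in the table, 17.2% held CAGGTG and 66.2% held CANNTG. The window of Ovol2 and the 4 windows of Zeb2 held neither motif. A match is a description of these letters and not a measured site. Snai2 had no entry. By the RefSeq gene table on GRCm38.p6, Snai1 lies on chromosome 2 at 167538195 to 167542814 and Mesp1 on chromosome 7 at 79792241 to 79793590. Zeb2 lies on chromosome 2 at 44983512 to 45117442, Ovol2 on chromosome 2 at 144305175 to 144332080 and Snai2 on chromosome 16 at 14705852 to 14709395.

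A value in what follows is a log2 ratio of sample over pup reference with the array's median set to 0. The log base and the direction of the ratio are not given in the sources used here. The direction was read from the values: 8 of 8 genes typical of pup tissues were below 0 (median -2.30) and 7 of 7 embryonic stem cell genes were above 0 (median 0.65). The level of one gene cannot be set against that of another, because the reference holds a different amount of each. Replicate arrays correlated at 0.925 to 0.958 at 8 d, 0.669 to 0.898 at 95 h and 0.590 to 0.966 at 84 h. Flk1+ arrays 2 and 4 of 84 h and, less far, Flk1- array 4 of 84 h stood apart from their groups, so many results at 84 h are also given without these 3 arrays. That setting leaves 2 Flk1+ and 3 Flk1- arrays of 84 h, and its p-values rest on a spread estimated over all groups. Nothing in the labels says that the 4 samples of a group came from separate cultures, so p-values reflect only how these samples vary, and that variation may be technical. A gene is called where limma's moderated test gives an adjusted p (Benjamini-Hochberg over 17440 features) under 0.05.

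Kdr, the gene of the sorted receptor, checked the sort. At 84 h its log2 ratios were 1.80, 0.036, 1.43 and 0.67 on Flk1+ arrays 1 to 4 and between -1.08 and -0.74 on the Flk1- arrays. At 95 h the Flk1+ arrays ranged from 1.73 to 1.98 and the Flk1- arrays from -1.30 to -0.997, and at 8 d from 1.46 to 1.89 and from -0.35 to -0.28. The sorts did not overlap at any time, and the 2 low Flk1+ values of 84 h were those of the arrays that stood apart.

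Snai1 had its highest means in Flk1+ cells at 84 h and 95 h and was low in Flk1+ cells at 8 d and in Flk1- cells at 84 h. At 84 h its log2 ratios on arrays 1 to 4 were 1.33, 2.06, 1.64 and 2.14 in Flk1+ cells (mean 1.79 ± 0.38, SD, n = 4) and 0.16, -0.071, 0.084 and 0.74 in Flk1- cells (0.23 ± 0.35). All 4 Flk1+ arrays lay above all 4 Flk1- arrays, whose highest was array 4. The difference was 1.56 (SE 0.20, adjusted p = 2.08e-05), or 2.95-fold, and was called. Without the 3 arrays that stood apart it was 1.43 (adjusted p = 0.000193).

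At 95 h Snai1 gave 1.66, 1.87, 1.34 and 1.49 in Flk1+ cells and 1.48, 1.04, 0.75 and 0.99 in Flk1- cells. Array 1 of the Flk1- cells reached into the Flk1+ range, and the difference of 0.53 (95% interval 0.12 to 0.94, adjusted p = 0.258) was not called. Within same-numbered pairs Flk1+ was the higher in 4 of 4, by 0.18, 0.83, 0.60 and 0.50, and with the number as a block the adjusted p was 0.0791. Flk1- cells rose in Snai1 from 84 h to 95 h by 0.83 (SE 0.20, adjusted p = 0.0345), with no overlap between the arrays of the 2 times, while the Flk1+ difference was -0.20 (adjusted p = 0.48), which turned to 0.10 (adjusted p = 0.803) once the 3 arrays were left out. The Flk1- rise was 1.00 without the 3 arrays (adjusted p = 0.00361) but it was no longer called in a fit of those 8 arrays alone (adjusted p = 0.122). It also was not called without any 1 of 6 of the 8 arrays (adjusted p 0.0528 to 0.120), the exceptions being array 3 of 95 h and array 4 of 84 h. Whether the sorts changed differently over this interval was not settled by the test of that difference, -1.04 (SE 0.28, adjusted p = 0.231).

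By 8 d Snai1 stood at 0.12, 0.18, 0.24 and 0.41 in Flk1+ cells (mean 0.24 ± 0.13) and at 0.51, 0.57, 0.54 and 1.11 in Flk1- cells (0.68 ± 0.29). The Flk1- arrays were now the higher ones, without overlap, and array 4 stood above its group. This difference of -0.44 (95% interval -0.85 to -0.032) was not called (adjusted p = 0.92), except with array weights (-0.53, adjusted p = 0.0039). With the replicate number as a block the adjusted p was 0.289. Snai1 fell in Flk1+ cells from 95 h to 8 d by 1.35 (SE 0.20, adjusted p = 3.27e-05), or 2.55-fold, and the Flk1- difference was -0.38 (adjusted p = 0.206). The Flk1+ minus Flk1- difference of Snai1 moved by -2.01 from 84 h to 8 d (SE 0.28, adjusted p = 0.000285), a comparison added after the data were seen. Without the 3 arrays this was -1.87 (adjusted p = 0.000299).

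Mesp1, the factor of nascent cardiovascular mesoderm, was high in both sorts at 84 h and 95 h and low in both at 8 d. At 84 h its log2 ratios were 3.76, 4.67, 3.85 and 4.70 in Flk1+ cells (mean 4.24 ± 0.51) and 3.09, 1.89, 2.44 and 3.59 in Flk1- cells (2.75 ± 0.74). The arrays did not overlap, but the lowest Flk1+ and the highest Flk1- array were close, and the Flk1- arrays spread over 1.70. Flk1+ cells were higher by 1.49 (SE 0.28, adjusted p = 0.0014), or 2.81-fold. Without the 3 arrays that stood apart the difference was 1.33 (adjusted p = 0.00341). With only the 8 arrays of 84 h fitted it was the same size and not called (adjusted p = 0.0985).

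At 95 h Mesp1 gave 3.72, 3.30, 3.71 and 3.70 in Flk1+ cells and 2.73, 3.36, 3.21 and 3.56 in Flk1- cells. The sorts overlapped through Flk1+ array 2, and the difference of 0.39 (95% interval -0.18 to 0.96, adjusted p = 0.75) was not called. From 84 h to 95 h Mesp1 differed by -0.64 in Flk1+ cells (adjusted p = 0.101) and by 0.46 in Flk1- cells (adjusted p = 0.473), neither called. The Flk1+ value was -0.20 without the 3 arrays (adjusted p = 0.689) and turned to 0.057 after quantile normalization (adjusted p = 0.898), and the Flk1- value was called after quantile normalization (0.91, adjusted p = 0.0416). Array weights gave 0.95 (adjusted p = 0.0217). The Flk1+ value was called without Flk1+ array 1 of 84 h (-0.80, adjusted p = 0.0415).

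At 8 d Mesp1 stood at 0.77, 0.38, 0.64 and 0.72 in Flk1+ cells and at 0.67, 0.32, 0.39 and 0.48 in Flk1- cells. The sorts overlapped, and the difference was 0.16 (95% interval -0.41 to 0.73). Flk1+ was the higher in 4 of 4 same-numbered pairs, by 0.059 to 0.25, and the difference was not called with the block either (adjusted p = 1.00). Mesp1 fell from 95 h to 8 d by 2.98 in Flk1+ cells (SE 0.28, adjusted p = 5.52e-08), or 7.90-fold, and by 2.75 in Flk1- cells (adjusted p = 2.29e-07), or 6.73-fold. By size these were the 23rd and 27th changes among 17440 features. The change of its sort difference from 84 h to 8 d was -1.33 (SE 0.39, adjusted p = 0.063), not called, and was called without the 3 arrays (-1.17, adjusted p = 0.0411). It was also called with array weights (-1.27, adjusted p = 0.00712) and without Flk1+ array 1 (-1.49), Flk1+ array 3 (-1.46) or Flk1- array 4 (-1.61) of 84 h. In bulk RNA, fewer cells that contain a transcript and less of it per cell cannot be told apart.

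**Figure D1:**
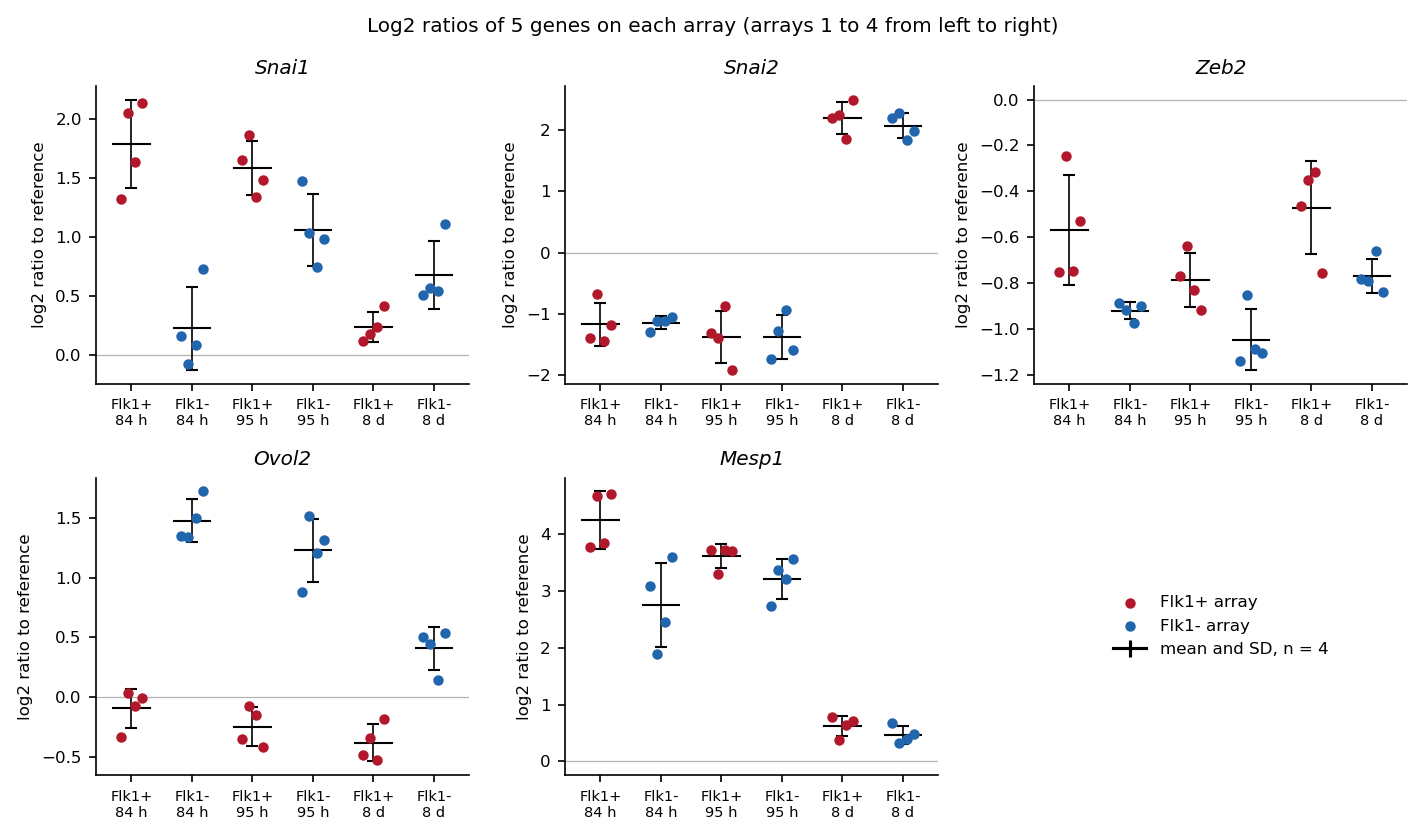
Log2 ratio to the pup reference (y axis) of Snai1, Snai2, Zeb2, Ovol2 and Mesp1 on each array (points, arrays 1 to 4 from left to right) in the 6 groups (x axis), with mean and SD (n = 4), each gene on its own axis. Ovol2 separates the sorts at every time, Mesp1 is low in both sorts at 8 d and Snai1 in Flk1+ cells at 8 d, and Snai2 is above 1.8 on every 8 d array and below -0.6 on every earlier one.

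Ovol2, the factor among these that holds the epithelial state, was the lower in the Flk1+ fraction at all 3 times. At 84 h its log2 ratios were -0.33, 0.038, -0.072 and -0.010 in Flk1+ cells (mean -0.094 ± 0.16) and 1.34, 1.34, 1.50 and 1.72 in Flk1- cells (1.48 ± 0.18). No Flk1+ array came within 1 log2 unit of the Flk1- arrays, and the arrays that stood apart lay with their groups. The difference was -1.57 (SE 0.14, adjusted p = 1.43e-07), or 2.97-fold, and -1.60 without the 3 arrays (adjusted p = 7.39e-06).

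At 95 h Ovol2 gave -0.35, -0.073, -0.15 and -0.42 in Flk1+ cells and 0.88, 1.51, 1.21 and 1.31 in Flk1- cells. The sorts again stood apart on all 8 arrays, and Flk1+ cells were at -1.47 relative to Flk1- cells (SE 0.14, adjusted p = 6e-07), which is 2.78-fold. At 8 d the values were -0.48, -0.34, -0.53 and -0.18 in Flk1+ cells and 0.50, 0.44, 0.15 and 0.54 in Flk1- cells. The gap was smaller, with no overlap, at -0.79 (SE 0.14, adjusted p = 0.00586), or 1.73-fold. Each of these 3 calls held without any 1 of the 8 arrays compared, with adjusted p up to 1.63e-06 at 84 h, 6.85e-06 at 95 h and 0.0372 at 8 d.

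Ovol2 fell in Flk1- cells from 95 h to 8 d by 0.82 (SE 0.14, adjusted p = 0.000149), or 1.76-fold, while the Flk1+ difference was -0.14 (95% interval -0.42 to 0.15). Earlier, neither sort had a called change (-0.15 in Flk1+ and -0.25 in Flk1- cells). The sort difference moved by 0.68 from 95 h to 8 d (SE 0.19, adjusted p = 0.153), which was called with the replicate number as a block (adjusted p = 0.0479) and without Flk1- array 1 of 95 h (0.80, adjusted p = 0.0491). From 84 h to 8 d it moved by 0.78 (SE 0.19, adjusted p = 0.0271). That last call was lost on the arrays as deposited (0.72, adjusted p = 0.0514), after quantile normalization (0.40, adjusted p = 0.346) and without any 1 of 5 arrays (0.69 to 0.77, adjusted p 0.0548 to 0.0724). These were Flk1+ arrays 2 and 4 and Flk1- array 3 of 8 d, and Flk1- arrays 3 and 4 of 84 h.

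**Figure D2:**
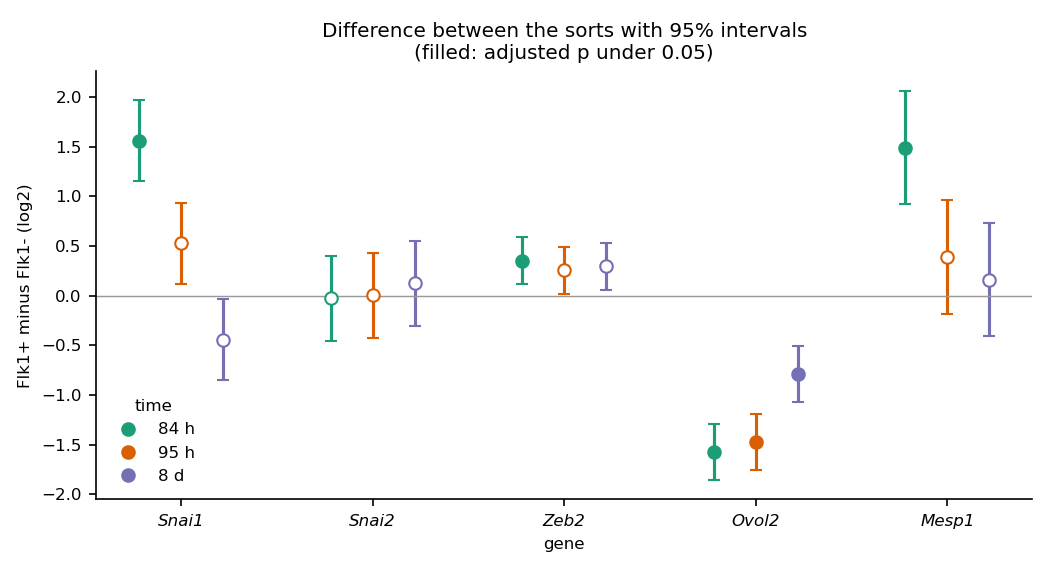
Flk1+ minus Flk1- difference (y axis, log2) of each gene (x axis) at 84 h, 95 h and 8 d (colours), from the fit over 24 arrays, with 95% intervals. Filled points passed an adjusted p of 0.05. Ovol2 is below 0 at each time (-1.57, -1.47 and -0.79), Snai1 goes from 1.56 to -0.44, and every Snai2 interval includes 0.

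Snai2, the second Snail repressor, changed with time and not measurably with the sort. At 84 h its log2 ratios were -1.40, -0.68, -1.44 and -1.18 in Flk1+ cells and -1.30, -1.11, -1.13 and -1.05 in Flk1- cells. At 95 h they were -1.31, -1.40, -0.88 and -1.92 in Flk1+ cells and -1.74, -1.28, -0.93 and -1.59 in Flk1- cells. At 8 d they were 2.20, 2.24, 1.85 and 2.50 in Flk1+ cells and 2.20, 2.28, 1.84 and 1.98 in Flk1- cells. The 8 arrays of 8 d lay far above all 16 earlier arrays, and the sorts overlapped at each time.

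The rise of Snai2 from 95 h to 8 d was 3.58 in Flk1+ cells (SE 0.21, adjusted p = 4.76e-11), or 11.9-fold, and 3.46 in Flk1- cells (adjusted p = 8.55e-11), or 11-fold. By size it was the 7th and the 3rd change of 17440 features in these comparisons. Between the sorts the differences were -0.028 at 84 h (95% interval -0.46 to 0.40), 0.0060 at 95 h (-0.42 to 0.43) and 0.12 at 8 d (-0.30 to 0.55). Differences above about 0.55 in size thus lay outside all 3 intervals. Snai2 differed between 84 h and 95 h by -0.21 in Flk1+ and -0.24 in Flk1- cells, neither called. The 8 measured markers of smooth muscle and fibroblasts moved over the same time: their mean per array ran from -2.40 to -2.10 at 95 h and from -0.56 to -0.42 at 8 d in Flk1+ cells, and from -2.17 to -2.01 and from -0.64 to -0.44 in Flk1- cells. Of these 8 genes 5 rose in Flk1+ cells, where 12.8% of all features rose, and 4 rose and 1 fell in Flk1- cells, where 9.88% rose and 7.78% fell. Their part in the Snai2 values was not tested.

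Zeb2 had small differences, and its 2 probes, numbered 13850 and 15113, disagreed over time. The average of both gave -0.75, -0.25, -0.75 and -0.53 in Flk1+ cells at 84 h and -0.89, -0.92, -0.97 and -0.90 in Flk1- cells. The arrays did not overlap, and the highest value was that of Flk1+ array 2, which stood apart. The difference of 0.35 (SE 0.11, adjusted p = 0.0455) was called, but was 0.18 without the 3 arrays (adjusted p = 0.471). It was also not called without any 1 of 6 of the 8 arrays (adjusted p 0.0633 to 0.154), the exceptions being Flk1+ arrays 1 and 3. Neither probe was called alone, at 0.22 (adjusted p = 0.145) for 13850 and 0.48 (adjusted p = 0.0674) for 15113. At 95 h and 8 d the differences of 0.26 (95% interval 0.022 to 0.50, adjusted p = 0.402) and 0.30 (0.061 to 0.53, adjusted p = 0.654) were not called, although the 8 d value was with array weights (0.36, adjusted p = 0.000357). Flk1+ was the higher in 4 of 4 same-numbered pairs at each time, by 0.19 to 0.37 at 95 h and 0.079 to 0.44 at 8 d. With the number as a block neither was called (adjusted p = 0.213 and 0.277).

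Over time probe 13850 had Flk1+ values of 0.079, 0.25, 0.12 and 0.60 at 84 h, of -0.16 to -0.023 at 95 h and of -0.25 to -0.10 at 8 d. It fell in Flk1+ cells from 84 h to 95 h by 0.37 (adjusted p = 0.0215) and differed by -0.071 from 95 h to 8 d (adjusted p = 0.691). Probe 15113 had Flk1+ values of -1.66 to -0.74 at 84 h, of -1.71 to -1.25 at 95 h and of -0.74, -0.54, -0.53 and -1.26 at 8 d. It rose from 95 h to 8 d by 0.71 in Flk1+ cells (adjusted p = 0.00532) and by 0.60 in Flk1- cells (adjusted p = 0.0191). Their average rose by 0.32 in Flk1+ cells (adjusted p = 0.0494) with overlapping arrays, as probe 15113 did alone. After quantile normalization it was 0.062 (adjusted p = 0.744). The call was also lost on the arrays as deposited (0.27, adjusted p = 0.0948), in a fit of just these 8 arrays (adjusted p = 0.0689) and with the replicate number as a block (adjusted p = 0.0519). It was also lost without any 1 of 6 of the 8 arrays (adjusted p 0.0759 to 0.151), the exceptions being array 2 of 95 h and array 4 of 8 d. In Flk1- cells the average differed by 0.28 (adjusted p = 0.0972), and it was called without array 2 of 95 h (0.34, adjusted p = 0.0495), with array weights (0.30, adjusted p = 0.0116) and without the 3 arrays of 84 h (0.28, adjusted p = 0.0335). The files used here do not place the probes within the gene.

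**Figure D3:**
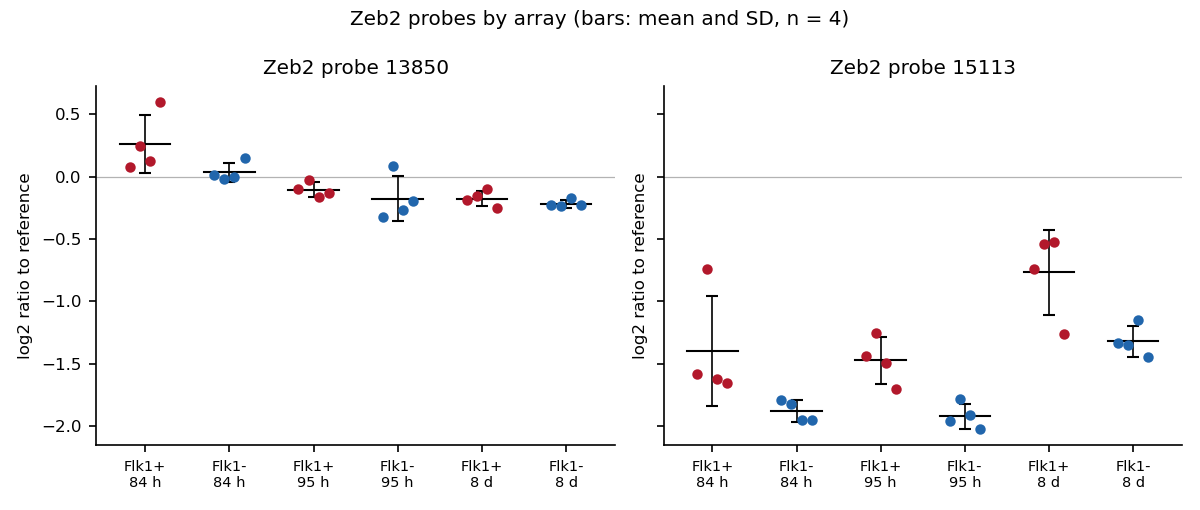
Log2 ratio to the pup reference (y axis) of the 2 Zeb2 probes on each array (points, red Flk1+ and blue Flk1-, arrays 1 to 4 from left to right) in the 6 groups (x axis), with mean and SD (n = 4). Probe 13850 has group means from 0.26 down to -0.22, and probe 15113 is higher at 8 d (means -0.77 and -1.32) than before; the 2 levels are not comparable with each other.

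Across the comparisons, 4 of the 5 genes were called between the sorts at 84 h, where 13.5% of all features were. Of these, 3 were higher in Flk1+ cells (5.3% of all features) and 1 lower (8.18%). At 95 h 1 of 5 was called (2.03% of all features, 0.659% higher and 1.37% lower) and at 8 d 1 of 5 (0.373%, 0.149% higher and 0.224% lower), Ovol2 both times as lower. Flk1+ and Flk1- arrays had separate ranges for 4 genes at 84 h (17.4% of all features), 1 at 95 h (4.81%) and 2 at 8 d (15.9%). Over the earlier time step limma called none in Flk1+ cells, with 1 at an unadjusted p under 0.05 and 1 without overlap, while 19.8% of all features were called (11.2% higher, 8.62% lower) and 13.2% did not overlap. In Flk1- cells 1 was called, as higher, and did not overlap, with 1.64% of all features called (1.06% higher, 0.585% lower) and 9.98% without overlap.

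The later time step, 95 h to 8 d, called more of the 5 genes. In Flk1+ cells 4 were called (22.1% of all features), 2 higher (12.8%) and 2 lower (9.31%), and 3 did not overlap (34.6%). In Flk1- cells 3 were called (17.7%), 1 higher (9.88%) and 2 lower (7.78%), and 4 did not overlap (27.8%). The 2 time comparisons that meet at 95 h share those arrays, as do the sort and time comparisons of a group.

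The test of a change in the sort difference called none of the 5 from 84 h to 95 h, with 2 at an unadjusted p under 0.05 (0.00573% of all features called, 0.00573% higher and 0% lower). From 95 h to 8 d it also called none, again with 2 unadjusted (0.533%, 0.35% higher and 0.183% lower). These were Snai1 at -0.97 (adjusted p = 0.177) and Ovol2, and with the replicate number as a block both were called (adjusted p = 0.0479 each). Snai1 was also called with array weights (-1.09, adjusted p = 0.0464) and without the 3 arrays of 84 h (-0.97, adjusted p = 0.030). From 84 h to 8 d, 2 of 5 were called, Snai1 and Ovol2 (3.18% of all features). Snai1 was lower (0.854%) and Ovol2 higher (2.32%).

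Ordered by level over the 6 groups, the genes gave different sequences. The 15 pairs of groups had from 0.373% to 39.3% of all features called. Against Flk1+ 84 h, 24.9% were called in Flk1- 95 h, 39.3% in Flk1+ 8 d and 37.2% in Flk1- 8 d. Against Flk1- 84 h, 7.47% were called in Flk1+ 95 h, 18.2% in Flk1+ 8 d and 16.5% in Flk1- 8 d. Between 95 h and 8 d, 19.3% were called from Flk1+ to Flk1- and 20.5% from Flk1- to Flk1+. For Snai1 9 of 15 pairs were called, in the order Flk1+ 84 h, Flk1+ 95 h, Flk1- 95 h, Flk1- 8 d, Flk1+ 8 d and Flk1- 84 h, with no neighbours called. For Mesp1 10 pairs were called, and only the step from Flk1- 84 h down to Flk1+ 8 d (2.13, adjusted p = 5.18e-06) separated neighbours. For Ovol2 11 pairs were called. All 3 Flk1- groups came before all 3 Flk1+ groups, and the steps from Flk1- 95 h to Flk1- 8 d and from there to Flk1+ 84 h (0.50, adjusted p = 0.00667) separated neighbours. For Snai2 8 pairs were called, all of them 8 d against an earlier time, with 1 step of 3.22 (adjusted p = 1.8e-10) from Flk1- 8 d to Flk1- 84 h. For Zeb2 5 pairs were called and no neighbours.

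Epithelial genes, the class that Snail and Zeb repressors are known to shut off, went with Ovol2. Of 23 measured ones 15 were lower, 1 higher (Krt8, a keratin, 0.39) and 7 not called in Flk1+ against Flk1- cells at 84 h, with a median of -0.80 beside 0.0041 over all features. Of all features 8.18% were lower and 5.3% higher. Without the 3 arrays that stood apart 11 of the 23 were lower and none higher, while the calls over all features went from 2352 to 1176. The list was chosen with earlier results known and gets no test. Cdh1, E-cadherin itself, gave -0.83, -1.94, -0.72 and -1.74 in Flk1+ cells and 1.45, 1.83, 1.73 and -0.098 in Flk1- cells on the arrays of 84 h, and thus differed by -2.54 (SE 0.34, adjusted p = 3.74e-05). Array 4 was far below the other Flk1- arrays, without reaching the Flk1+ range. Epcam, an epithelial adhesion molecule, differed by -2.17, the tight junction claudin Cldn3 by -1.92 and the membrane protease St14 by -1.66. Without the 3 arrays these were -1.79, -1.92 and -1.80, and Cdh1 was at -2.44.

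Epithelial genes were lower in Flk1+ cells at the later times as well. At 95 h 11 of 23 were lower and none higher, with a median of -0.66 (all features -0.0035), among them Cdh1 (-1.88), the polarity gene Crb3 (-1.76), Epcam (-1.69) and St14 (-1.46). Of all features 1.37% were lower at 95 h and 0.224% at 8 d. Without the 3 arrays of 84 h, which enter the shared error, 13 were lower at 95 h. The calls over all features then went from 354 to 698 at 95 h and from 65 to 172 at 8 d. At 8 d 5 were lower, Cldn4 (-1.26), St14 (-0.90), the inhibitor Spint2 (-0.87), Crb3 (-0.86) and the tight junction gene Ocln (-0.73), with a median of -0.36 (all features 0.0067), and 10 without the 3 arrays. Cdh1 was at -1.09 without a call (adjusted p = 0.328) and with no overlap of arrays. Between 95 h and 8 d Flk1- cells fell in 8 epithelial genes (7.78% of all features), led by Epcam (-1.73) and Cdh1 (-1.68), and rose in 4 (9.88%), led by the keratin Krt19 (0.83).

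Mesenchymal genes differed less between the sorts and more over time. Of 21 measured ones 7 were higher (5.3% of all features), none lower and 14 not called in Flk1+ cells at 84 h (6 higher without the 3 arrays), with a median of 0.16. They included fibronectin Fn1 (1.36, and 1.61 without the 3 arrays), the matrix protease Mmp14 (1.32 and 1.18), Cdh11 (1.30 and 2.45) and N-cadherin Cdh2 (0.98 and 1.14). At 95 h 3 were higher (0.659% of all features), Cdh11 (1.70), Fn1 (0.88) and Cdh2 (0.55), and 5 without the 3 arrays of 84 h. Leaving out these arrays took the calls over all features from 2352 to 1176 at 84 h and from 354 to 698 at 95 h. At 8 d none was called (0.149% of all features higher and 0.224% lower). Between 95 h and 8 d 12 rose and 1 fell in Flk1+ cells (median 0.67, all features -0.012), and 12 rose and none fell in Flk1- cells (median 1.08, all features -0.034). Of all features 12.8% rose and 9.31% fell in Flk1+ cells, and 9.88% rose and 7.78% fell in Flk1- cells. Periostin Postn rose by 5.87 and 5.54 in the 2 sorts, smooth muscle actin Acta2 by 3.69 and 3.58, decorin Dcn by 2.99 and 3.13 and the receptor Pdgfrb by 2.49 and 2.76. Cdh2 fell in Flk1+ cells by 0.62. Some of these genes are also smooth muscle and fibroblast markers, whose mean level per array is given with Snai2.

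Among 15 other measured regulators of EMT, no gene was higher (5.3% of all features) and 4 were lower (8.18%) in Flk1+ cells at 84 h (median -0.16), and 2 of them without the 3 arrays. These were epithelial or differentiation regulators: Grhl1 (-1.51), the helix-loop-helix inhibitor Id2 (-0.93), Klf5 (-0.87) and the Ets factor Elf3 (-0.48). Id2 (-0.46, adjusted p = 0.416) and Klf5 (-0.45, adjusted p = 0.398) were the ones not called without the 3 arrays. That setting took the calls over all features at 84 h from 2352 to 1176. At 95 h Grhl1 (-1.75) and Elf3 (-0.82) were lower (1.37% of all features), and at 8 d none of the 15 was called (0.373% of all features). Zeb1, the relative of Zeb2, differed by -0.079 at 84 h (adjusted p = 0.882), and Ovol1, the relative of Ovol2, by 0.18 (adjusted p = 0.171). Twist1 was at 0.44 (adjusted p = 0.174) at 84 h and rose in Flk1+ cells by 0.75 (adjusted p = 0.0234) from 84 h to 95 h, a rise that leaving out the 3 arrays reduced to 0.47, with no call (adjusted p = 0.207). Goosecoid, Gsc, a streak and organizer factor, differed from 95 h to 8 d by -3.00 in Flk1+ and -2.83 in Flk1- cells, both called, and Id2 rose by 1.59 and 1.56.

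Genes for partners and turnover of the Snail and Zeb proteins were also measured. Of 16, 2 were lower and none higher in Flk1+ cells at 84 h (8.18% and 5.3% of all features), the corepressor Ctbp2 (-1.19) and the LIM protein Ajuba (-0.64). Ctbp2 was also lower at 95 h (-0.75, with 1.37% of all features lower), and at 8 d limma called none (0.373% of all features). By 8 d 5 had risen (12.8% of all features) and 1 fallen (9.31%) since 95 h in Flk1+ cells, and 4 rose in Flk1- cells (9.88%). The lysyl oxidases Loxl2 and Loxl3, which are known to act on Snai1 protein, rose by 1.20 and 0.68 in Flk1+ and by 1.16 and 0.85 in Flk1- cells.

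Of 22 measured ligands, receptors and effectors that induce EMT at gastrulation, 7 were higher (5.3% of all features) and 1 lower (8.18%) in Flk1+ cells at 84 h (median 0.23). Without the 3 arrays it was also 7 and 1, although Bmp7, Tgfb1 and Fgf5 were then not called. Bmp4 was higher by 1.24, the receptor Notch1 by 1.22, the BMP effector Smad1 by 0.98 and the FGF receptor Fgfr1 by 0.81. Without the 3 arrays these were 0.98, 1.27, 1.41 and 0.63. Fgf5, a ligand of the epiblast, was lower (-0.67, and -0.38 without the 3 arrays, adjusted p = 0.391). At 95 h 5 were higher (0.659% of all features), led by Smad1 (1.04), Fgf3 (0.81) and Bmp4 (0.77), and at 8 d none was called (0.373% of all features). Without the 3 arrays of 84 h these counts were 8 and 1, while the calls over all features went from 354 to 698 and from 65 to 172. Over the later time step 4 rose (12.8% of all features) and 8 fell (9.31%) in Flk1+ cells, among them Smad1 (-1.75), the Wnt effector Lef1 (-1.52) and Tgfb2 (1.32). In Flk1- cells 6 rose (9.88% of all features) and 3 fell (7.78%), among them Tgfb2 (1.64) and Fgf5 (-1.29). Without the 3 arrays 9 rose and 6 fell, while the calls over all features went from 3080 to 5087.

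Among genes of the streak and early mesoderm, where Mesp1 is first expressed, 6 of 12 measured were higher (5.3% of all features) and 1 lower (8.18%) in Flk1+ cells at 84 h (median 0.44). Without the 3 arrays it was 3 and 1, while the calls over all features went from 2352 to 1176. Hoxb1, a homeobox gene, was higher by 1.87, the apelin receptor Aplnr by 1.23 and the Wnt inhibitor Frzb by 1.00. Mesp2, the neighbouring relative of Mesp1, was higher by 0.39 (adjusted p = 0.0181; 0.23 without the 3 arrays, adjusted p = 0.241), and the endoderm and axial factor Foxa2 was lower (-1.95). Between 95 h and 8 d 8 of 12 fell in Flk1+ cells (9.31% of all features) and 7 in Flk1- cells (7.78%) and none rose. Among those that fell were Lefty2 (-2.16 and -1.63), Lhx1 (-1.87 and -2.04) and Eomes (-1.22 and -0.84).

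Cardiac progenitor genes that act downstream of or beside Mesp1 were higher in Flk1+ cells at 84 h in 8 of 16 cases (5.3% of all features), with none lower (median 0.50, and 7 without the 3 arrays). Tbx3 was higher by 2.37, Hand1 by 1.71, Fgf10 by 1.64 and Gata4 by 0.81, and without the 3 arrays by 2.34, 1.48, 1.79 and 0.82. At 95 h 4 were higher (0.659% of all features), Tbx3 (1.99), the atrial light chain gene Myl7 (1.44), Hand1 (1.27) and Fgf10 (1.13). At 8 d 1 was lower (0.224% of all features), Myl4 (-0.90), and the median was -0.24. Without the 3 arrays 3 were lower at 8 d. Leaving them out took the calls over all features from 2352 to 1176 at 84 h and from 65 to 172 at 8 d. The change of the sort difference from 95 h to 8 d was lower in 5 of these 16 genes (0.183% of all features) and higher in none (0.35%). While Mesp1 fell in both sorts from 95 h to 8 d, 3 rose and 4 fell in Flk1+ cells, led by Tbx3 (-2.67), and 6 rose and none fell in Flk1- cells, led by Hand1 (1.54) and Myl7 (1.51). Of all features 12.8% rose and 9.31% fell in Flk1+ cells, and 9.88% rose and 7.78% fell in Flk1- cells.

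**Figure D4:**
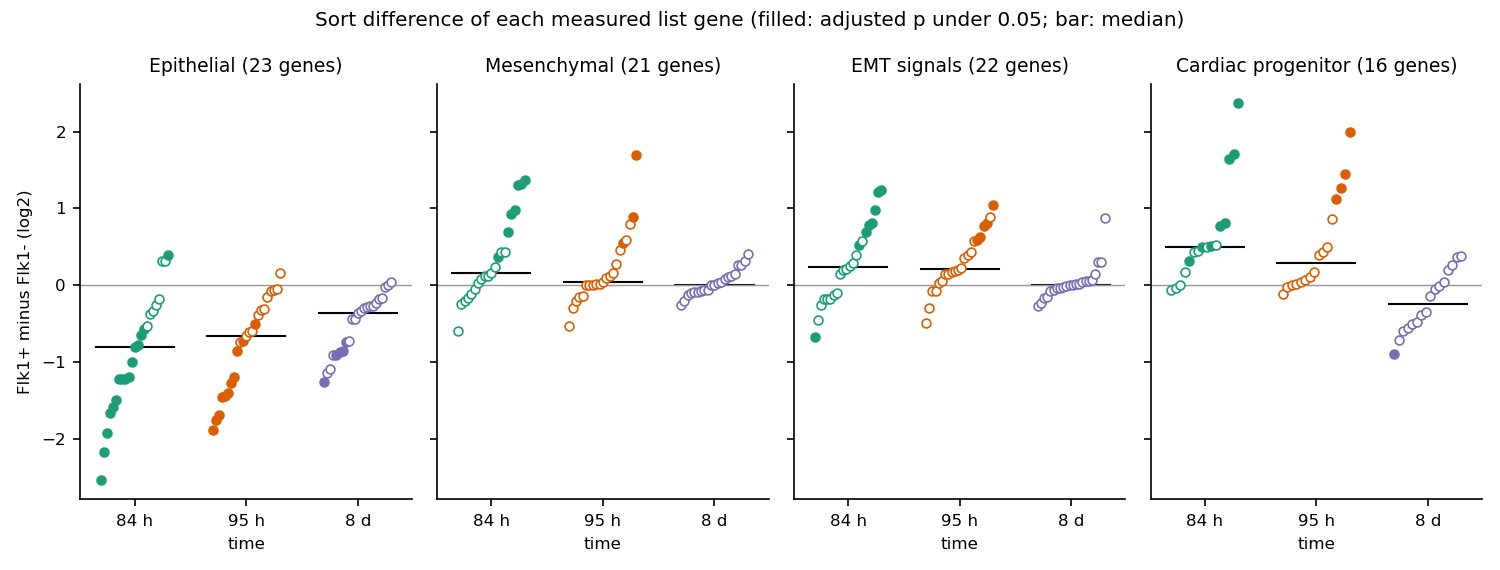
Flk1+ minus Flk1- difference (y axis, log2) of every measured gene of 4 lists at 84 h, 95 h and 8 d (x axis), sorted by size within a time, with filled points called and bars at the median. Epithelial genes have medians of -0.80, -0.66 and -0.36, and cardiac progenitor genes of 0.50, 0.28 and -0.24.

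Markers of other cells also moved with the sort. Of all features, 5.3% were higher and 8.18% lower in Flk1+ cells at 84 h, 0.659% and 1.37% at 95 h, and 0.149% and 0.224% at 8 d. Leaving out the 3 arrays took the calls over all features from 2352 to 1176 at 84 h, from 354 to 698 at 95 h and from 65 to 172 at 8 d. Of 9 measured genes of pluripotent cells and epiblast 7 were lower in Flk1+ cells at 84 h (4 without the 3 arrays) and 3 at 95 h (6 without them). Sox2, a defining pluripotency factor, was lower at 84 h (-3.56, and -3.01 without the 3 arrays) and 95 h (-2.66). Nanog, another such factor, was lower at 84 h (-0.48; -0.20 without the 3 arrays, adjusted p = 0.465) and not called at 95 h (-0.52, adjusted p = 0.0921). The list mean per array at 84 h ran from 0.65 to 1.18 for Flk1+ and from 1.93 to 2.13 for Flk1-, from 0.59 to 0.78 and 1.32 to 1.75 at 95 h, and from -0.0050 to 0.058 and 0.23 to 0.40 at 8 d. The 8 measured endoderm genes had array means at 84 h from -1.29 to -1.09 for Flk1+ and from -0.88 to -0.64 for Flk1-, with 3 lower and 2 higher, and from -1.22 to -1.05 and -0.48 to -0.17 at 8 d, with 3 lower. These markers thus lay lower in Flk1+ cells together with Ovol2 and the epithelial genes, and their part in those differences was not tested. Of 9 endothelial genes 1 was higher in Flk1+ cells at 84 h, 1 higher and 1 lower at 95 h, and 3 higher at 8 d. The list holds Kdr, the gene of the receptor used for the sort. Kdr was the higher gene at 84 h and at 95 h and was among the 3 at 8 d, so no other endothelial gene was higher at the 2 earlier times. Of 6 blood genes none was called by limma between the sorts, but 1 was lower at 84 h and 1 at 8 d without the 3 arrays. Of 5 cardiac muscle genes 1 was higher, at 95 h. Without the 3 arrays 1 was higher at 84 h too, Myl7 (1.02, adjusted p = 0.00915), which is also on the cardiac progenitor list. Of 4 neural genes 1 was higher in Flk1+ cells at 84 h, and 1 lower without the 3 arrays.

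The genes most like each of the 5 were sought among 8972 other named genes, by the root mean square difference of the 6 group means after each gene's own mean was taken off. Nearest to Ovol2 were St14 (0.0818), Irs4 (0.0922) and Mt1 (0.138), against an SD of its own group means of 0.72. Nearest to Snai1 were Msx2 (0.184), Hoxb1 (0.226) and Greb1l (0.233), with an own SD of 0.61. Snai2 had Cd248 (0.176), Pcolce (0.203) and Creb3l2 (0.213) nearest, with an own SD of 1.61, and the means of all 3 were higher at 8 d than before in both sorts. Mesp1 had no gene as near: Vrtn (0.464), Tdgf1 (0.465) and Lefty2 (0.478) came closest, with an own SD of 1.44. They had higher means in Flk1- cells at 84 h, relative to their own average, than Mesp1 had. Zeb2, whose profile is nearly flat (SD 0.20), had Commd7 (0.0479), Gnaq (0.0607) and Ciz1 (0.0645) nearest. These are descriptions over 6 group means, with no test.

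**Figure D5:**
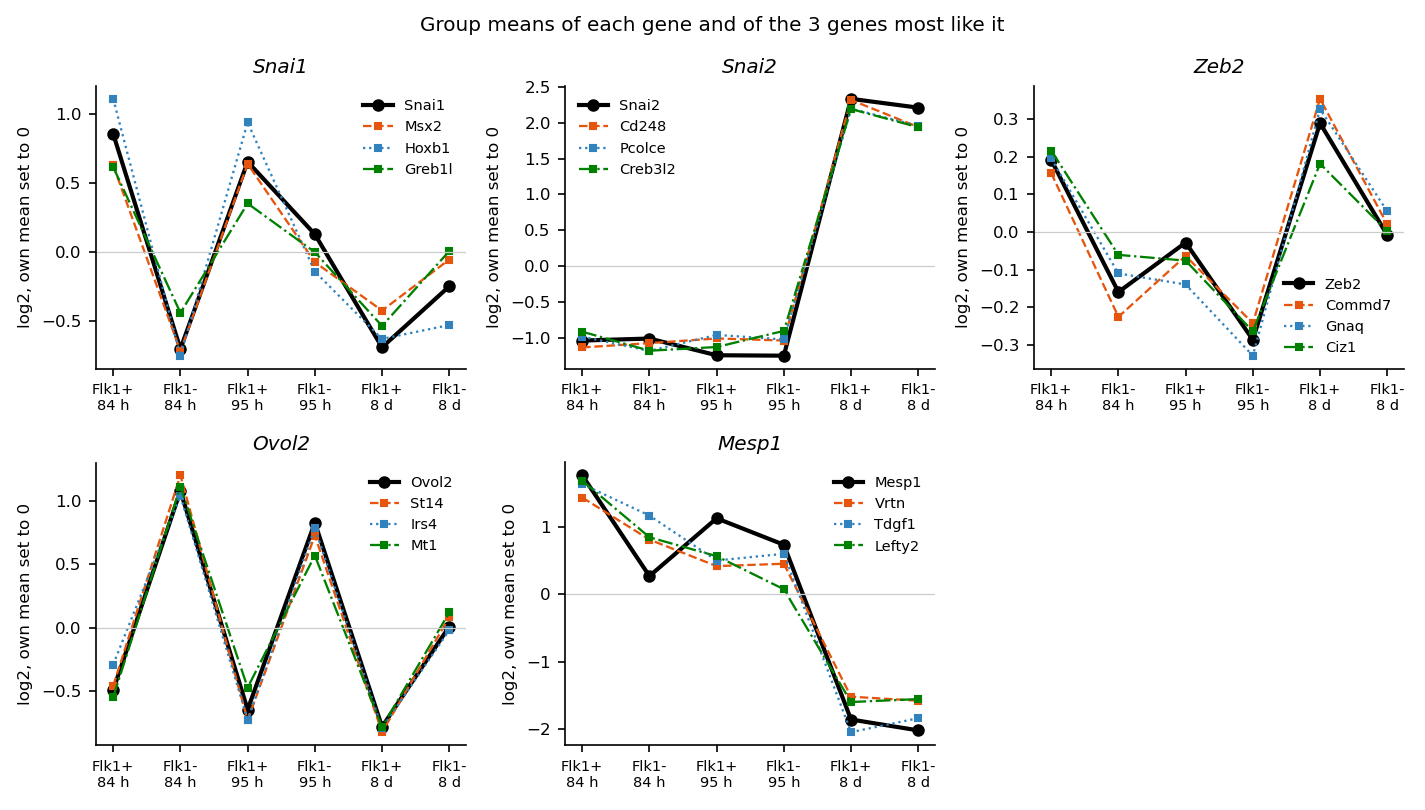
Group means (y axis, log2, each gene's mean over the 6 groups set to 0) of the 5 genes (black) and the 3 genes most like each (coloured) in the 6 groups (x axis). St14, Irs4 and Mt1 follow Ovol2 in alternating between the sorts, while Vrtn, Tdgf1 and Lefty2 follow Mesp1 with gaps at 84 h and 95 h.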

How the data were processed

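RNA of 24 sorted samples was measured on two-colour Agilent mouse development arrays. The deposited table gives 1 value per probe and array on a log scale, read here as log2 ratios; per the labels, Cy5 held the sample and Cy3 the pup reference, both amplified. Background correction, normalization and log base are not given in the sources used here. Probes with 1 annotated gene (11813) were averaged per gene, the other 8467 kept singly, giving 17440 features, and each array's median was set to 0. R 4.3.3 with limma 3.58.1 and data.table (version 1.17.8) fitted all 24 arrays with a mean per group (18 residual degrees of freedom), and Python 3.11.15 with matplotlib 3.10.9 drew figures. The script was tested on simulated data. No dye was swapped, and 4 arrays a group limit precision.

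The genes and lists were chosen with earlier results of these data known. Up to 4 called genes per list and comparison, and the 3 genes most like each of the 5, could be named, as could uncalled list members. Array numbers came from the labels. Same-numbered Flk1+ and Flk1- arrays deviated together in every pair at 95 h (correlations 0.107 to 0.417) and 8 d (0.146 to 0.437). At 84 h arrays 1, 3 and 4 did so (0.340, 0.313 and 0.526). Array 2 did not (-0.127), and its Flk1+ array was among those that stood apart. Across times, within a sort, same-numbered arrays did not (3 of 24 above 0.1). The labels do not say that equal numbers mark paired samples. The main tests leave the numbers out, and the replicate block is an alternative. Alternatives were arrays as deposited, quantile normalization, array weights, 1 probe per gene, single probes, only the arrays compared, the replicate block, leaving out each array, and leaving out 3 arrays; the comparison of 84 h with 8 d and the list counts without 3 arrays were added after seeing the data.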

Additional observations from a re-analysis of the deposited data

Results flagged for a closer look

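Among 30 groups of 4 arrays (5 genes in 6 groups), 2 held an array far from the other 3, and chance flags about 1 in 20 groups. Snai1 in Flk1- cells at 8 d was at 1.11 on array 4, while the nearest other array was at 0.57. Mesp1 in Flk1+ cells at 95 h was at 3.30 on array 2, while the nearest other array was at 3.70. The effect of the sort differed between 84 h and 8 d, by a test of that difference, for Snai1 by -2.01 (adjusted p = 0.000285) and for Ovol2 by 0.78 (adjusted p = 0.0271). This comparison was added after the data were seen. The Snai1 call held in all 23 alternatives, and the Ovol2 call was lost in 7 of 23.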

How the results depend on the processing

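For the 5 genes, 924 alternative values were computed for 50 results: 826 kept direction and side of the threshold, 37 lost a call, 21 gained one, and 40 in 14 results changed sign. Of these 40, 1 turned a called result, Zeb2 in Flk1+ cells from 95 h to 8 d on probe 13850 (-0.071), and none was called after the change. For uncalled results, the step from 84 h to 95 h in Flk1+ cells turned for Snai1 (0.019 after quantile normalization, 0.10 without the 3 arrays of 84 h), Mesp1 (0.057, quantile) and Snai2 (0.0093 with weights, 0.038 without the 3). Zeb2 in Flk1- cells from 95 h to 8 d turned on probe 13850 (-0.043). The sort difference of Snai2 at 84 h turned to 0.020 as deposited and 0.29 after quantile normalization and ran from -0.19 to 0.061 without 1 array, and at 95 h from -0.16 to 0.19 without 1 array. The change of the sort difference from 84 h to 95 h turned for Snai2 (-0.21 quantile, -0.13 to 0.21 without 1 array) and Zeb2 (0.068 weights, 0.082 without the 3, -0.15 to 0.014 without 1), and for Ovol2 ran from -0.020 to 0.19 without 1. From 95 h to 8 d it turned for Zeb2 (-0.046 quantile, -0.028 on probe 13850, -0.026 to 0.13 without 1) and ran from -0.063 to 0.28 without 1 for Snai2. From 84 h to 8 d it turned for Snai2 (-0.21, quantile) and Zeb2 (0.16 weights, 0.072 on the probe with the largest SD, 0.12 without the 3, -0.11 to 0.053 without 1). The calls of Snai2, Ovol2, Mesp1 and Snai1 from 95 h to 8 d, of Ovol2 and Snai1 at 84 h and of Ovol2 at 95 h and 8 d held under all alternatives run. So did the call of Snai1 for the change of the sort difference from 84 h to 8 d. Counts of called features moved more, and the causes were not tested. At 84 h 2352 features were called between the sorts, against 1304 after quantile normalization, 3625 with array weights, 347 from only the arrays compared, 4386 with the replicate block, 1176 without the 3 arrays and 1017 to 4550 without 1 array. At 95 h 354 were called, against 135 from only the arrays compared, 545 with the block, 698 without the 3 and 286 to 364 without 1. At 8 d 65 were called, against 218 (quantile), 2332 (weights), 952 (only the arrays compared), 139 (block), 172 (without the 3) and 31 to 54 (without 1). The step from 84 h to 95 h had 3451 in Flk1+ cells, against 1625 (quantile), 804 (weights), 0 (only the arrays compared, by limma, with 3020 at an unadjusted p under 0.05), 951 (without the 3) and 1637 to 5358 (without 1). Flk1- cells had 286, against 2156 (weights), 70 (only the arrays compared), 178 (block), 668 (without the 3) and 93 to 449 (without 1). The step to 8 d had 3861 in Flk1+ cells, against 6059 (weights), 5864 (without the 3) and 2873 to 3687 (without 1), and Flk1- cells 3080, against 6692, 5087 and 2308 to 2992. The change of the sort difference from 84 h to 95 h had 1 call, against 0 (quantile, 2026 unadjusted), 46 (weights), 0 (only the arrays compared, 1265 unadjusted), 5 (block), 31 (without the 3) and 1 to 11 (without 1). From 95 h to 8 d it had 93, against 288 (weights), 161 (only the arrays compared), 173 (block), 314 (without the 3) and 47 to 101 (without 1). The split into higher and lower calls at 84 h was 925 and 1427, against 1447 and 1209 on the arrays as deposited. In Flk1+ cells it was 1947 and 1504 from 84 h to 95 h, against 1648 and 2018 as deposited, and 2238 and 1623 from 95 h to 8 d, against 2304 and 2697 after quantile normalization. In Flk1- cells from 95 h to 8 d it was 1723 and 1357, against 2135 and 2456 after quantile normalization. For the change of the sort difference from 95 h to 8 d it was 61 and 32, against 57 and 59 after quantile normalization. No scaling moved the median of all features by 0.1 or more.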
